A study of Saccharomyces cerevisiae with 2 samples.

Results

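The genes that encode the machinery of RNA polymerases I and III were compared between 2 budding yeast strains, one with wild-type ACS2 and the other with acs2-Ts1, a temperature-sensitive allele. The machinery was taken as a list of 37 genes: 7 subunits of polymerase I, 10 of polymerase III, 3 shared subunits, 8 genes of the factors TFIIIC and TFIIIB, 8 rDNA transcription factor genes and the repressor gene MAF1. All 37 were found among the 5449 yeast genes on the arrays, each read by a single probe set that is not marked for cross-hybridization. ACS2 encodes the nuclear and cytosolic enzyme that makes acetyl-CoA from acetate. Both strains derive from BY4741, have mating type a, carry his3delta1, leu2delta0, met15delta0 and ura3delta0, and lack the chromosomal copy (acs2::HygMX). A centromeric URA3 plasmid, pHT112-1 or pHT215, supplies ACS2 or acs2-Ts1, respectively. Both cultures grew in YPD and were held at 37 °C for 60 min before total RNA was taken, so the control is a heat-shocked wild type. Both titles call their sample wild type, so the genotype field was used to assign the groups. No sample at a lower temperature was analysed here, and the allele and any other difference between the cultures or plasmids cannot be told apart.

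RNA polymerase I transcribes the repeated rDNA into the precursor of the large ribosomal RNAs, and RNA polymerase III makes tRNAs, 5S rRNA and other small RNAs. Most transcription in a growing yeast cell is done by these enzymes, and their output falls when growth stops or nutrients run out. The core of each enzyme is built like that of RNA polymerase II. Some small subunits belong to all the enzymes, others only to polymerases I and III, and the remainder to one enzyme. The arrays read the messenger RNAs of the subunits, all made by polymerase II, and not the activity of polymerase I or III.

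Each strain has 1 deposited sample, the authors' mean of 2 arrays. No test, standard error or p-value can therefore be given, and "higher" and "lower" describe the acs2-Ts1 sample relative to the wild-type sample. Values are intensities on a linear scale that the authors normalized to controls, and levels of different genes are not compared, since each probe set has its own brightness. The spread between probe sets was described by genes that several of them read. Over 8 such genes with 40 probe sets, the log2 ratio (acs2-Ts1 divided by wild type) had a pooled SD of 0.33 between probe sets of the same gene. For single genes the SD ran from 0.07 in ACT1, a bright gene, to 0.65 in SRB4, a dim one. All 40 probe sets were read in the same samples. The pooled SD therefore holds no variation between cultures or arrays and is not the precision of a difference between the strains. Genes deleted in both strains gave a reading for absent RNA: LEU2 read 68.0 and 77.5, and MET17 (met15 in the labels) read 47.9 and 77.5, in wild type and acs2-Ts1. Where a gene read no more than 77.5 in acs2-Ts1, its fold is given as "at least", computed against 77.5. All probe sets of EAF5 and most of SRB4 also read under 77.5 in acs2-Ts1, so the pooled SD rests partly on such readings.

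All 37 genes read lower in acs2-Ts1 as deposited, and 26 of them (70.3%) were at least 2-fold lower. Most of the genome was lower as well: 86.4% of the 5449 genes read lower and 55.9% were at least 2-fold lower. Among the 4779 genes between the lowest and highest mean level of the 37, 62.1% were at least 2-fold lower. The share among the 37 genes was only moderately above this, and the difference was not tested. That range holds most of the genome, so it does not match the genes for level. The median log2 ratio of the 37 genes was -1.39, against -1.12 for all genes. Relative to the all-gene median 25 of the 37 genes lay below and 12 above, so the direction of the latter rests on the authors' scaling. At least 4-fold lower as measured were 5 of the 37 genes, beside 9.51% of all genes, though for 2 of them the bound against deleted genes is under 4-fold. Of the 37 genes 0 were at least 2-fold higher, beside 3.67%. The genes ran from RPC17, at least 6.10-fold lower, to RRN5, with a log2 ratio of -0.01. Closest to the 2-fold threshold were RPA34, 2.02-fold lower, and TFC3, 1.91-fold lower.

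**Figure D1:**
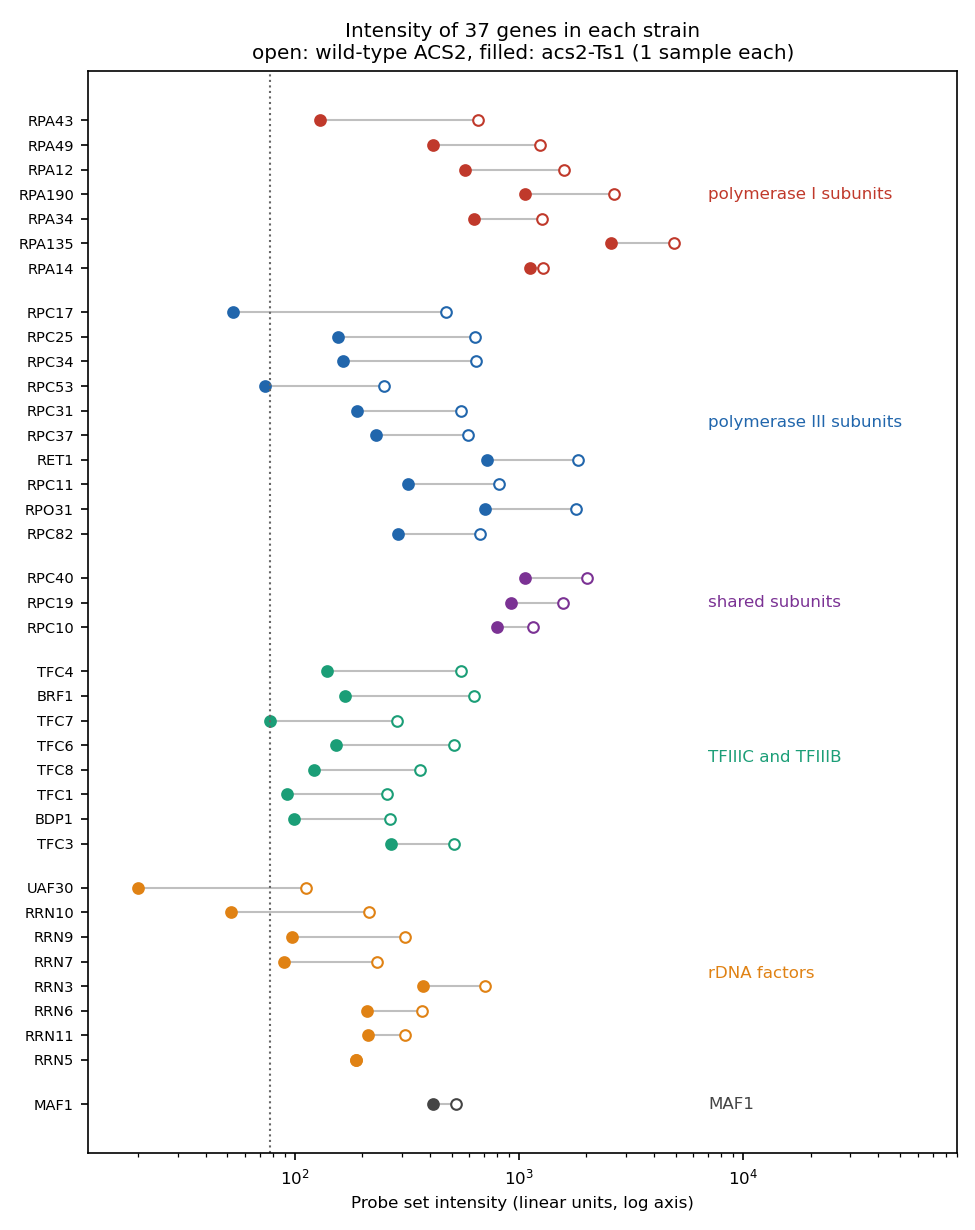
Probe set intensity (log axis) of each of the 37 genes in wild type (open) and acs2-Ts1 (filled), 1 sample each, grouped by role and ordered by ratio; the dotted line is the 77.5 read for deleted genes in acs2-Ts1. Every filled point lies at or left of its open point, and 5 filled points lie on or left of the dotted line. Relative to the all-gene median, 12 of the 37 genes would lie on the higher side.

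The 7 genes found only in polymerase I were all lower as deposited. Of them 5 were at least 2-fold lower, beside 55.9% of all genes. Their median log2 ratio was -1.31, or -0.18 once the all-gene median is taken off. They did not move as one block. RPA43 (YOR340C), a subunit of the stalk that binds the initiation factor Rrn3, read 655 in wild type against 129.8 in acs2-Ts1, 5.05-fold lower. RPA14 (YDR156W), its partner in the stalk, read 1284 and 1121, 1.15-fold lower. The partners of this one substructure thus had the lowest and the highest ratio of the enzyme, and the direction of RPA14 turns to 0.93 above the all-gene median.

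The catalytic subunits of polymerase I lay between these ends. RPA190 (YOR341W), the largest subunit, read 2649 in wild type against 1069 in acs2-Ts1, a log2 ratio of -1.31. RPA135 (YPR010C), the second-largest, read 4907 and 2576, a log2 ratio of -0.93, which lies 0.19 above the all-gene median. Both are among the brighter readings on the arrays, where ratios of all genes were closer to 0. With the trend with level removed, the values of RPA190 and RPA135 became -0.49 and -0.48, nearly the same. RPA12 (YJR063W), a zinc ribbon subunit that takes part in cleavage of the transcript, read 1593 and 573, 2.78-fold lower. The partners of the TFIIF-like module were RPA49 (YNL248C), at 1244 and 413, and RPA34 (YJL148W), at 1270.4 and 629. They were 3.01-fold and 2.02-fold lower, and RPA34 lay 0.11 above the all-gene median.

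The 10 genes found only in polymerase III were all at least 2-fold lower, beside 55.9% of all genes. Their median log2 ratio was -1.45 and their highest ratio was -1.21. Centred on the all-gene median, 1 of the 10 was at least 2-fold lower, beside 6.61% of all genes. All 10 also lay below the all-gene median, by a median of 0.33, and 9 of 10 lay below the trend with level, beside 50.9% of all genes. The lowest was RPC17 (YJL011C), a subunit of the stalk, which read 473 in wild type against 52.7 in acs2-Ts1. Because the acs2-Ts1 reading was under that of the deleted genes, the fold is given as at least 6.10-fold lower. RPC25 (YKL144C), its partner in the stalk, read 638 and 156, 4.08-fold lower. Both partners of the polymerase III stalk were therefore among the 4-fold lower genes, unlike those of polymerase I.

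The subunits RPC82, RPC34 and RPC31 form a module of polymerase III that resembles the factor TFIIE and takes part in opening the promoter. RPC34 (YNR003C) read 646 in wild type against 163 in acs2-Ts1, 3.95-fold lower. RPC31 (YNL151C) read 554 and 189, 2.93-fold lower, and RPC82 (YPR190C) read 667 and 288, 2.32-fold lower. The log2 ratios within this module ranged over -1.98, -1.55 and -1.21, and RPC82, the highest of the 10, was the only one at or above the trend with level, by 0.03. RPC53 (YDL150W) and RPC37 (YKR025W) form the TFIIF-like module, which acts in termination and reinitiation. RPC53 read 250.1 and 73.4, at least 3.22-fold lower, and RPC37 read 591 and 231, 2.56-fold lower.

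The remaining polymerase III subunits had almost the same ratio as deposited. RPO31 (YOR116C), the largest subunit, read 1788 in wild type against 708 in acs2-Ts1, a log2 ratio of -1.34. RET1 (YOR207C), the second-largest, read 1834 and 716, a log2 ratio of -1.36. RPC11 (YDR045C), the zinc ribbon subunit needed for cleavage of the transcript, read 811 and 319, a log2 ratio of -1.35. As deposited, these values, with that of RPC37 at -1.36, differ by far less than probe sets of the same gene did. With the trend with level removed, RPO31 and RET1 stayed alike at -0.36 and -0.39. RPC11 at -0.15 and RPC37 at -0.06 then lay above them, so the closeness depends on the scale used.

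The shared subunits stood at the upper end of the enzymes. RPC40 (YPR110C) and RPC19 (YNL113W), which pair as the counterpart of the alpha subunits of bacterial RNA polymerase and serve both polymerase I and III, read 2015 and 1567 in wild type against 1059 and 924 in acs2-Ts1. RPC10 (YHR143W-A), a small zinc-binding subunit of all the enzymes, read 1149.8 and 799. The log2 ratios were -0.93, -0.76 and -0.53, so 0 of 3 reached 2-fold, and all 3 lay above the all-gene median, where their direction turns to a median of 0.36. The other 4 subunits common to all the enzymes, which are not in the list of 37, were RPB5 at -1.45, RPB10 at -0.87, RPB8 at -0.80 and RPO26 at -0.64. Over all 7 shared subunits the median was -0.80, and RPB5 alone was at least 2-fold lower, beside 55.9% of all genes. With the trend with level removed the median of these 7 was -0.05, with 4 below and 3 above.

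**Figure D2:**
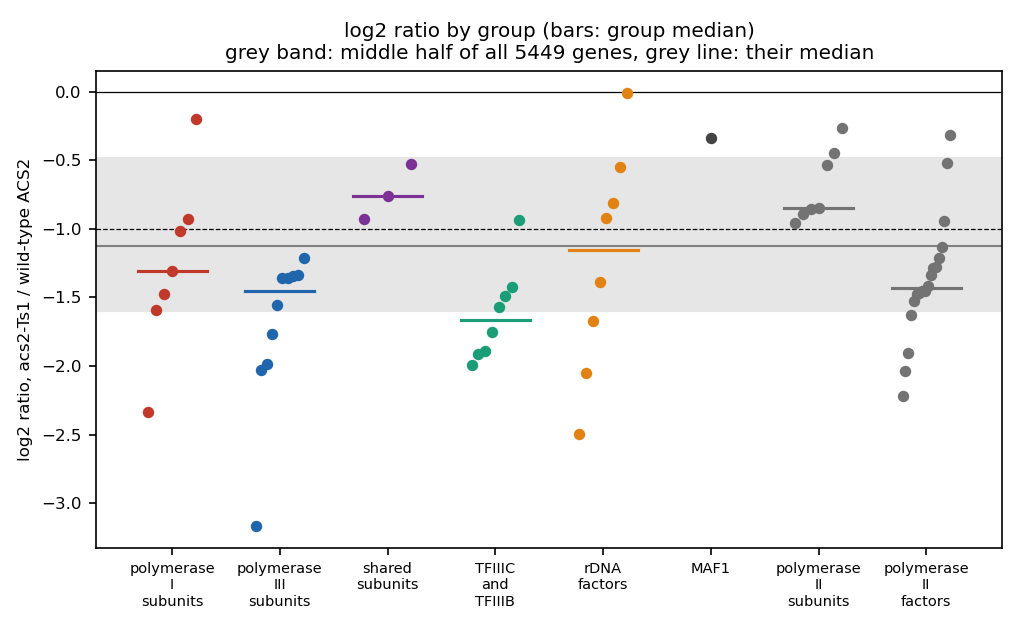
log2 ratio (acs2-Ts1 divided by wild type) for each gene (points) with group medians (coloured bars), beside the subunits and general factors of RNA polymerase II; the grey line is the all-gene median of -1.12 and the dashed line marks 2-fold lower. All 10 polymerase III subunits lie below both lines, while the 3 shared subunits, MAF1 and the 7 polymerase II subunits lie above both, so the latter would turn to the higher side if the all-gene median were set to 0.

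Counterpart genes at 8 matching positions of the enzymes were then set against each other. A difference between the ratios of 2 genes does not depend on the scaling between the samples, though it does depend on any trend with level. At the largest subunit the log2 ratio of RPO21 of polymerase II was -0.45, which was 0.86 above RPA190 and 0.89 above RPO31. At the second-largest subunit RPB2 had -0.26, above RPA135 by 0.67 and above RET1 by 1.09. For the zinc ribbon subunits, RPB9 had -0.89, above RPA12 by 0.58 and above RPC11 by 0.45. In each of these positions both polymerase I and III lay below polymerase II.

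At the stalk the partners of one position differed between the enzymes. RPB7, the counterpart of RPA43 and RPC25, had a log2 ratio of -0.85, above them by 1.48 and 1.18. RPB4, the counterpart of RPA14 and RPC17, had -0.53, which was 0.33 below RPA14. With RPC17 set to the reading of the deleted genes, it lay 2.08 below RPB4 and 2.41 below RPA14. Probe sets of the same gene spanned up to 1.70, in SRB4 with 6 probe sets, whose acs2-Ts1 readings ran from 14.7 to 108.9, and 1.05 in SPT15 with 7. For the alpha-like pair the enzymes did not separate: RPB3 at -0.95 and RPB11 at -0.85 lay within 0.09 of RPC40 and RPC19. The TFIIB-like factors were BRF1 of polymerase III at -1.91, RRN7 of polymerase I at -1.39 and SUA7 (TFIIB itself) at -0.52. In all, the polymerase III gene was lower than its polymerase II counterpart at 6 of 8 positions and the polymerase I gene at 5 of 8. With the trend with level removed these counts were 8 and 7. The positions added were those of the alpha-like pair, whose genes count for both polymerase I and III. There RPC40 was at -0.05 and RPB3 at 0.18, and RPC19 was at 0.19 and RPB11 at 0.28. Both gaps were smaller than the pooled SD of 0.33 between probe sets of the same gene, which ran from 0.07 to 0.65 by gene. Where polymerases I and III have separate genes, the polymerase III gene was the lower at 4 of 6 positions, and at 2 of 6 with the trend removed, so the 2 enzymes had no steady order.

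**Figure D3:**
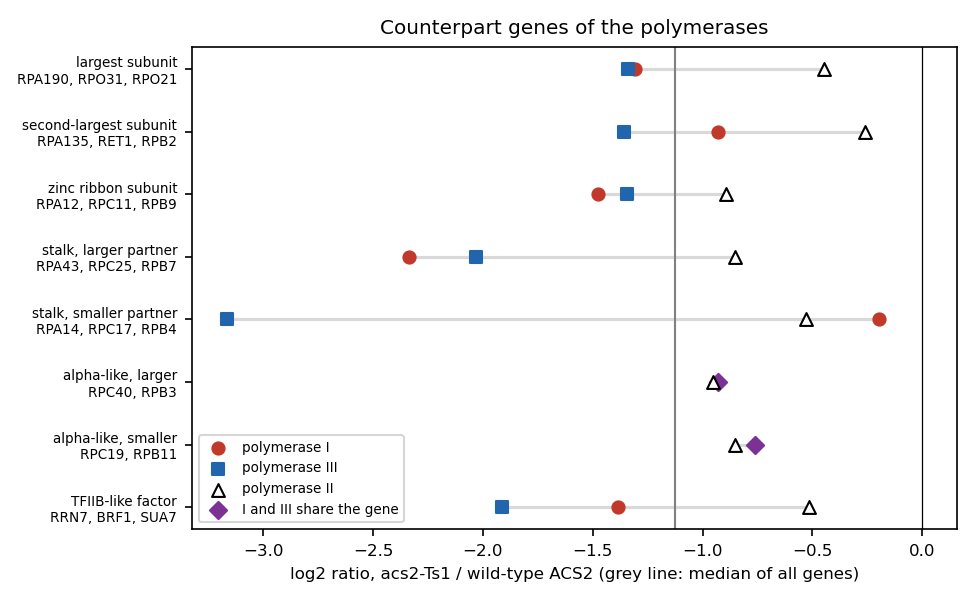
log2 ratio (acs2-Ts1 divided by wild type) at 8 matching positions of polymerases I (circles), III (squares) and II (triangles); diamonds mark genes that I and III share, and the grey line is the all-gene median. The triangles lie between -0.95 and -0.26, right of the grey line, so they turn to the higher side when centred on that median, and RPC17, drawn at its measured ratio, rests on a reading under that of the deleted genes; set to their reading it lies 2.41 below RPA14.

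The 7 subunits found only in polymerase II had a median log2 ratio of -0.85 with 0 of 7 at least 2-fold lower, 0.27 above the all-gene median. The general factors of polymerase II were lower than its subunits. Of 18 such genes 15 were at least 2-fold lower, beside 55.9% of all genes, with a median log2 ratio of -1.43. The lowest were TFB3, at least 4.22-fold lower, and TFB5, 4.11-fold lower, both of TFIIH. Their highest ratios were TFA1, the large subunit of TFIIE, at -0.31, and SUA7. TFG1 and TFG2, the TFIIF subunits that the modules RPA49-RPA34 and RPC53-RPC37 resemble, had -1.29 and -1.53, similar to those modules. A low ratio as deposited was thus not particular to factors of polymerases I and III. With the trend with level removed, the median of the 18 general factors was -0.09, with 13 below and 5 above. The TFIIIC and TFIIIB genes had -0.24 by this measure and the rDNA factors 0.17.

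TFIIIC is the complex that recognizes the internal promoters of tRNA genes, and it recruits TFIIIB, which in turn positions polymerase III. Of the 6 TFIIIC genes 5 were at least 2-fold lower, beside 55.9% of all genes. Their median log2 ratio was -1.66, or -0.54 once the all-gene median is taken off and -0.24 with the trend with level removed. TFC4 (YGR047C), the subunit that contacts TFIIIB, read 552 in wild type against 139 in acs2-Ts1, 3.98-fold lower. TFC7 (YOR110W) read 287 and 77.3, at least 3.70-fold lower, and TFC6 (YDR362C), of the part that binds the B box, read 512 and 152, 3.36-fold lower. TFC8 (YPL007C) read 362 and 122, and TFC1 (YBR123C), of the part that binds the A box, read 259 and 92.4. They were 2.97-fold and 2.80-fold lower. TFC3 (YAL001C), the largest subunit, which also binds the B box, was the exception at 512 and 267, 1.91-fold lower and 0.19 above the all-gene median. The log2 ratios of the B box partners TFC3 and TFC6 were -0.94 and -1.75.

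TFIIIB consists of BRF1, BDP1 and the TATA-binding protein. BRF1 (YGR246C), its TFIIB-like subunit, read 630 in wild type against 167 in acs2-Ts1, 3.77-fold lower. BDP1 (YNL039W) read 266 and 99.1, 2.68-fold lower, a ratio that lay 0.30 below the all-gene median and 0.03 above the trend with level. SPT15, the TATA-binding protein that all the polymerases use, read 2809 and 1732 in the probe set chosen for it, a log2 ratio of -0.70. The other 6 probe sets of SPT15 lie in its 5′, middle and 3′ parts, and over all 7 the ratio ran from -1.39 to -0.34 with an SD of 0.36. All 7 were below 0 as deposited, while on either side of the all-gene median. PZF1, the TFIIIA that 5S rRNA genes need in addition, read 119 and 70.5, the latter under the reading of the deleted genes.

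Among the rDNA factors, the upstream activation factor is a complex that holds the rDNA promoter active. It is built from RRN5, RRN9, RRN10 and UAF30 with histones. RRN5 (YLR141W) read 187.8 in wild type against 186.7 in acs2-Ts1, so it was level as deposited, 1.12 above the all-gene median, and on the higher side when centred on control probe sets. RRN9 (YMR270C) read 310 and 97.4, 3.18-fold lower, and RRN10 (YBL025W) read 215 and 52.0, at least 2.77-fold lower. UAF30 (YOR295W), which keeps polymerase II away from the rDNA, read 112 and 19.9. Its acs2-Ts1 reading was under the 95th percentile of probe sets for genes outside the species, 46.3, and the fold that can be given is at least 1.45-fold lower. Among the genes of this complex that read above the deleted genes, the range was thus from level in RRN5 to 3.18-fold lower in RRN9 as deposited.

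The core factor, which binds the rDNA promoter next to the start site, is made of RRN6, RRN7 and RRN11. RRN7 (YJL025W), its TFIIB-like subunit, read 233 in wild type against 89.0 in acs2-Ts1, 2.61-fold lower. RRN6 (YBL014C) read 369 and 210.3, and RRN11 (YML043C) read 310 and 212. They were 1.75-fold and 1.46-fold lower as deposited, and both turn to the higher side of the all-gene median, by 0.31 and 0.58. All 3 core factor genes lay above the trend with level, by 0.07 to 0.87. RRN3 (YKL125W), the factor that makes polymerase I competent to initiate and whose contact with RPA43 is regulated by growth, read 704 and 372. It was 1.89-fold lower, 0.20 above the all-gene median, while RPA43 was 5.05-fold lower. Of the 8 rDNA factor genes 4 were at least 2-fold lower as measured, a share near the 55.9% of all genes, though for UAF30 the bound is under 2-fold.

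MAF1 (YDR005C), the conserved repressor that shuts off polymerase III under stress, read 526 in wild type against 415 in acs2-Ts1. It was 1.27-fold lower as deposited and turned to 0.78 above the all-gene median and 0.88 above the trend with level. Each of the 10 polymerase III subunits and of the 8 TFIIIC and TFIIIB genes had a lower ratio than the repressor, as did 78.9% of all genes. Maf1 is controlled through phosphorylation, which an array does not read.

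Of 16 genes for kinases, phosphatases and the exportin linked to MAF1 or the polymerases, 11 were at least 2-fold lower, beside 55.9% of all genes, and 1 was at least 2-fold higher, beside 3.67%. Their median log2 ratio was -1.22, beside -1.12 for all genes. The higher one was KNS1 (YLL019C), a LAMMER kinase that phosphorylates RPC53 when polymerase III is repressed. KNS1 read 486 in wild type against 1272 in acs2-Ts1, 2.62-fold higher, a log2 ratio of 1.39. In log2 units it lay 2.51 above the all-gene median and 2.47 above the trend with level, further up than as deposited. MCK1, the kinase that acts on RPC53 after KNS1 and was singled out after its values were seen, read 2174 and 670.0, 3.25-fold lower. PPH3 and PSY2, catalytic and regulatory subunits of a phosphatase that acts on Maf1, read under the deleted genes in acs2-Ts1 and were at least 3.20-fold and 4.04-fold lower. CKB1, a regulatory subunit of casein kinase 2 that was likewise singled out after its values were seen, read 1457 and 353, 4.13-fold lower. CDC55, a regulatory subunit of protein phosphatase 2A, read 558 and 508.

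A list of 10 other factors of polymerase I or III transcription includes SPT15 and PZF1, described above. Of the 10, 2 were at least 2-fold lower and 1 was at least 2-fold higher, beside the same 55.9% and 3.67% of all genes. They had a median log2 ratio of -0.73, with PZF1 at its measured ratio, so this group turns to 0.40 on the higher side of all genes. NHP6B, a small HMG-box protein that assists polymerase III on the U6 snRNA gene, read 1229.7 in wild type against 2693 in acs2-Ts1, 2.19-fold higher. The second probe set for NHP6B, which may cross-hybridize, was also higher. NHP6A, a near-identical copy, read 1270.4 and 1260.8, which lies 1.11 above the all-gene median. FOB1, the replication fork barrier protein of the rDNA, was 3.15-fold lower, and SUB1, a coactivator linked to polymerase III, was 2.23-fold lower.

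Ratios of all genes were lowest at low to middling intensity and came closer to 0 for bright genes, and also for the dimmest ones. With the trend with level removed by a lowess curve, the median of the 37 genes was -0.21, with 24 below and 13 above. Polymerase I subunits then had a median of -0.48 and polymerase III subunits -0.34, while the rDNA factors had 0.17. RPA43 at -0.95 was the lowest by this measure among genes that read above the deleted genes, while RPC17 at -1.71 and UAF30 at -1.54 rest on readings under them. RRN5 at 1.44, MAF1 at 0.88 and RRN11 at 0.87 were the highest. For comparison, 82 ribosome assembly genes, many of which share promoter elements and regulation with these polymerases, had a median log2 ratio of -1.30 as deposited and -0.14 with the trend removed. Of these 65 (79.3%) were at least 2-fold lower, close to the 15 of 20 among the polymerase subunits, beside 55.9% of all genes.

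**Figure D4:**
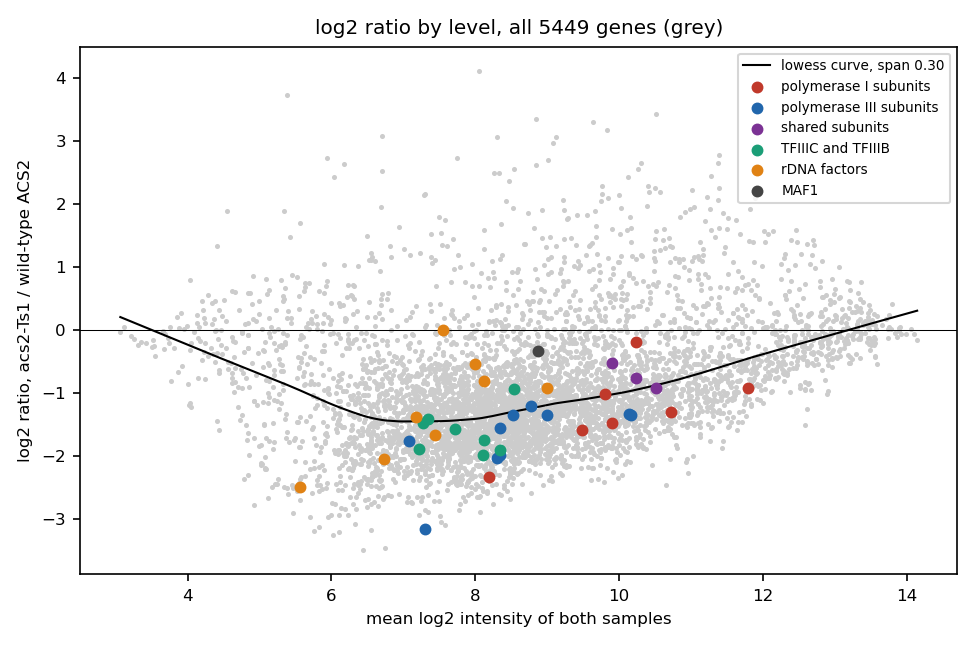
log2 ratio (acs2-Ts1 divided by wild type) against the mean log2 intensity of both samples for all 5449 genes (grey) and the 37 genes (coloured by role), with the lowess curve used to remove the trend. Of the 37 genes 24 lie below the curve and 13 above it, and all lie at or below 0 as deposited.

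The arrays also carry control probe sets for ribosomal RNA, the product of polymerase I, while no tRNA or other small polymerase III product was among the genes measured. The 5′ probe set of 18S rRNA read 1087 in wild type against 2400 in acs2-Ts1, and the middle one read 70.1 and 124. Its 3′ probe set read 45.2 and 49.9, the former under the background limit of 49.1 in wild type. The 3′ probe set of 25S rRNA read 931 and 1499, the middle one 89.0 and 163, and the 5′ one 64.5 and 89.1. Of 7 probe sets named for this species 6 were higher, with a median log2 ratio of 0.69, and that of 5.8S rRNA, at 19.4 and 15.5, was under the background limit in both samples. A further 10 probe sets for 18S and 25S rRNA do not name a species, and over all 17 there were 13 higher and 4 lower, from -0.46 to 1.14. Probe sets of the same rRNA thus had ratios on both sides of 0. Which primer was used for labelling is not given in the sources used here, and whether these readings follow the amount of rRNA was not tested.

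**Figure D5:**
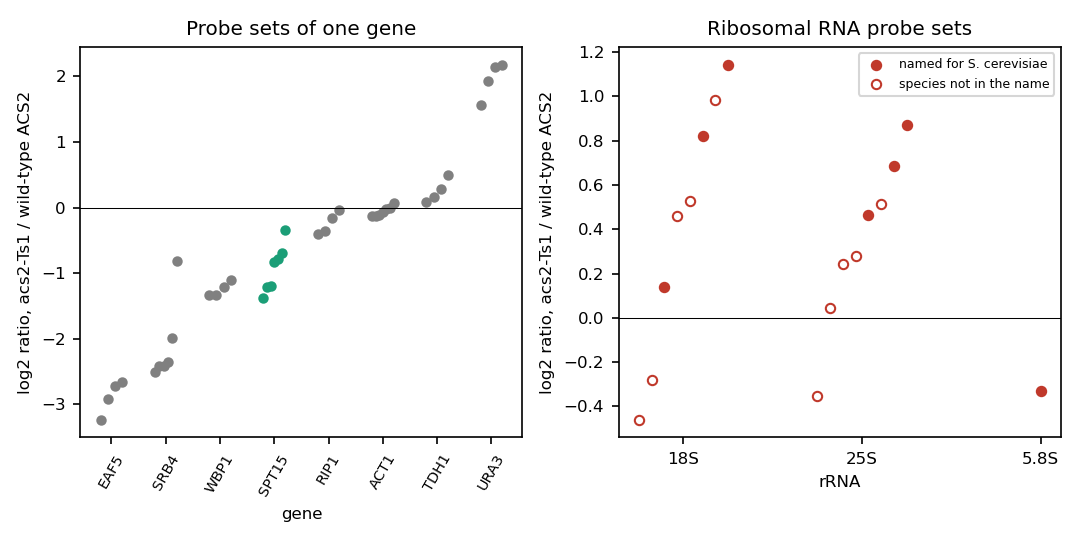
log2 ratio (acs2-Ts1 divided by wild type) for each probe set, shown left for 8 genes that several probe sets read and right for rRNA control probe sets. SPT15 (green, 7 probe sets) spans 1.05 and SRB4 (6 probe sets) spans 1.70, and 13 of 17 rRNA probe sets lie above 0 as deposited.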

How the data were processed

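The deposited table holds linear intensities per probe set, 1 column per strain. Per the labels and the design text, the authors corrected 4 Affymetrix arrays for background, averaged the 2 arrays of each strain and normalized the means with a lowess curve on controls, avoiding other scaling because expression shifted globally. The submitters' processing notes name RMA. Single arrays were not analysed here. Probe sets were named through the platform annotation and a RefSeq table of the R64 assembly (5498 of 10928 probe sets, 5449 genes). Per gene, the brightest probe set was kept, those with suffix letters being used only where no other existed. The log2 ratio was computed without a pseudocount. The trend with level was fitted by lowess with span 0.30. A check on simulated data used a smooth trend and randomly drawn sets far larger than the groups here, so it does not cover their medians. The 37 genes and all gene lists were chosen with earlier results of these data known. All 37 genes are named; of other lists at most the 2 lowest and 2 highest, beside counterparts and shared factors. Python 3.11.15, pandas 2.3.3 and statsmodels 0.14.6 were used.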

Additional observations from a re-analysis of the deposited data

How the results depend on the processing

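The alternatives were other scalings, probe set rules, a background filter, adding 32 to both values, removal of the trend with level, and thresholds of 1.5-fold and 3-fold. Centring on hybridization controls and raising values to the reading of the deleted genes were added after seeing the data. Centring on the all-gene median moves every log2 ratio by 1.12, on control probe sets by 0.18, and adding 32 moves the all-gene median by 0.12. Centred on the all-gene median, 3 of the 37 genes, 1 polymerase I subunit, 1 polymerase III subunit, 0 TFIIIC and TFIIIB genes and 1 rDNA factor were at least 2-fold lower, beside 6.61% of all genes, and the medians were -0.26 for the 37 genes, -0.18 for polymerase I and -0.33 for polymerase III. With the trend removed these counts were 2, 0, 1, 0 and 1, beside 4.06% of all genes, and the medians -0.21, -0.48 and -0.34. At 3-fold, 13 of the 37 genes, 2 polymerase I subunits, 4 polymerase III subunits and 4 TFIIIC and TFIIIB genes were lower as measured, beside 25.8% of all genes. For RRN10 and UAF30, among these 13, the bounds against deleted genes are only 2.77-fold and 1.45-fold. The other 62 of 82 recomputed values stayed within 1.5 times the count, or within 0.33 of the median, and none changed sign. Part of this was fixed in advance. The probe set rules could not change these values, because each of the 37 genes has a single probe set without a suffix letter. Centring on hybridization controls moved every log2 ratio by only 0.005. Without replicates, no replicate could be left out. No paired analysis was possible because each strain has 1 sample.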

Other observations

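Neighbouring genes of these lists, picked by consecutive locus tags whatever their values, did not always have like ratios. RPA43 (YOR340C) and RPA190 (YOR341W) are divergent neighbours, so a single stretch of DNA lies upstream of both, and their log2 ratios were -2.34 and -1.31. DBP7 (YKR024C), an RNA helicase gene of large subunit assembly, is divergent from RPC37 (YKR025W), with -2.05 and -1.36. RRS1 (YOR294W), for a regulator of ribosome synthesis, lies next to UAF30 (YOR295W) in the same orientation, with -1.65 for RRS1 and an acs2-Ts1 reading of UAF30 under background. RET1 (YOR207C) and its convergent neighbour NOC2 (YOR206W), for a pre-ribosome export factor, had -1.36 and -1.36.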
